A study of Rattus norvegicus with 9 samples.

Results

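Genes whose symbol begins with Kcn encode the pore-forming and accessory subunits of potassium channels. On 9 expression arrays of rat dendrite RNA, 75 such genes were measured, out of 14217 genes in all, through 126 of the 20826 probe sets that the platform's gene table ties to 1 gene. A probe set is a group of short oligonucleotides designed against 1 transcript, and its value is a log2 signal. The gene value was the median of its probe sets on each array, and the members were chosen by symbol alone, whatever their signal.

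Potassium channels let potassium leave the cell and so set the resting potential, end the action potential and damp excitation. Voltage-gated channels open on depolarisation, inward rectifiers and tandem-pore channels hold the membrane near rest, and calcium- and sodium-activated channels follow activity. Pyramidal neurons are known for placing these classes unevenly along the dendrite, where an A-type current, carried by Kv4 channels with accessory KChIP proteins, limits the spread of action potentials into distal branches. For some channels, such as Kv1.1 and Kv4.2, the mRNA is itself known to be carried into dendrites and translated there.

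The RNA came from dendrites cut by micropipette from hippocampal neurons of Sprague-Dawley rats, dissected at embryonic day 19 and cultured for 14 days. Pools of 100, 200 and 400 dendrites were compared, with 3 arrays per pool size. The labels name no treatment and no altered gene in any group. Each pool mixed dendrites of several cells, the study could not tell axons from dendrites by shape, and no cell bodies or other tissue were analysed here, so a rank in dendrites cannot be set against the soma.

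The labels call the cells pyramidal neurons. Of 10 pyramidal neuron markers, Neurod2 and Nrgn stood at the 99.9 and 99.4 percentiles of signal and the vesicular glutamate transporter Slc17a7 at 72.9, but Camk2a, a defining transcript of pyramidal dendrites, stood at 26.3. The list's median was 78.9, and its lowest member, Tbr1, stood at 1.39. Of 11 interneuron markers, the GABA-synthesis and transport genes Gad1, Gad2 and Slc32a1 stood at 10.8, 12.4 and 8.85, while Calb2 stood at 88.4, Sst at 66.2 and Reln at 63.2, with a list median of 52.6. Of 11 astrocyte markers, S100b was at the 91.1 percentile, Gfap at 86.0 and Aqp4 at 7.39, with a median of 63.3. Oligodendrocyte, endothelial, microglial, and fibroblast and mural lists had medians of 58.8, 53.0, 27.3 and 25.5, with the endothelial gene Vwf at 99.8. The part of other cells in the channel signals was not tested.

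The arrays had medians between 7.46 and 7.53. Bacterial transcripts that probe the hybridization step had a mean signal of 13.89 on replicate 1 of the 100-dendrite pools and 13.39 on replicate 1 of the 400-dendrite pools, against 11.67 to 12.45 on the other 7 arrays. The same 2 arrays held the fewest distinct values, 1692 and 1550 among 31099 probe sets, where the most on any array was 4057. Replicate 1 of the 400-dendrite pools also had the lowest median correlation with the other arrays over the channel genes, at 0.733. It gave the lowest signal of all arrays in 25 of the 126 channel probe sets and the highest in 28. Its own values are given beside the results that rest on it.

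The potassium channel genes were spread from the 1.47 to the 98.9 percentile of signal in dendrites. Of the 75, 3 were in the top 5% of genes by median rank over the arrays. These were Kcnh6, which encodes the ERG-type channel Kv11.2, Kcnip3, which encodes the calcium sensor KChIP3 (also called DREAM), and Kcnc4, which encodes the fast voltage-gated channel Kv3.4. The median member stood at the 58.3 percentile of all genes, and 43 of 75 were above the 50th. Percentiles are ranks of signal, which depends on how well each probe binds, so they are not amounts of RNA, and no test was made between genes.

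Kcnh6 gave 11.31, 11.89 and 11.61 in the 100-dendrite pools, 11.79, 11.86 and 11.78 in the 200-dendrite pools and 11.41, 11.92 and 11.73 in the 400-dendrite pools. Its mean was 11.70 ± 0.22 (here and below the SD over 9 arrays), at the 98.9 percentile. The 3 pool sizes overlapped, and the gene never fell below the 98.2 percentile on an array.

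Kcnip3 gave 11.27, 10.98 and 10.77, then 11.26, 10.95 and 10.99, then 11.14, 10.52 and 10.59 in the same order, with a mean of 10.94 ± 0.27 (percentile 97.3). Kcnc4 gave 11.06, 10.78 and 10.73, then 10.89, 10.57 and 10.46, then 11.14, 10.79 and 10.69, with a mean of 10.79 ± 0.22 (96.6). Both stayed in the top 5% on all 9 arrays, and neither separated the pool sizes. Each was the median of 2 probe sets that disagreed widely, as described below, while Kcnh6 had a single probe set. With the 2 arrays of brightest hybridization controls left out, 3 channel genes were still in the top 5% and the median percentile was 58.5.

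Below these came Kcnh3 of the ether-à-go-go family at 9.98 ± 0.67 (percentile 93.6) and Kcnj11, the Kir6.2 pore of ATP-sensitive channels, at 9.29 ± 0.70 (90.9). Kcnmb4, the neuronal beta subunit of BK channels, stood at 9.16 ± 0.42 (88.4). The next members, Kcnh4, Kcnh8, Kcnk9, Kcnh1, Kcnk6 and Kcnk5, lay between the 88.4 and 83.9 percentiles. On single arrays Kcnh3 ranged from the 86.1 to the 97.9 percentile and Kcnj11 from 52.2 to 94.1, so that their order among neighbours was not fixed.

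At the other end, Kcnh5 (Kv10.2) had the lowest signal, at 5.38 ± 0.36 (percentile 1.47), and never rose above the 9.46 percentile on an array. Kcne2, an accessory subunit known from stomach and heart, stood at 5.69 ± 0.41 (3.59), and Kcnmb1, the BK beta subunit of smooth muscle, at 5.89 ± 0.44 (4.13). The 3 probe sets of Kcne2 averaged 7.37, 5.67 and 5.12, the brightest of them at the 50.6 percentile of probe sets. Kcnk4 (TRAAK, a mechanosensitive channel), Kcnv1 and the renal channel Kcnj1 completed the 6 lowest, at the 4.41, 5.55 and 5.96 percentiles.

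The arrays carry 27 control probe sets for Bacillus genes, which the rat genome does not hold. Whether these transcripts were added to the samples is not given in the sources used here. Their means ran from 5.21 to 9.27, with a median of 6.75. Above the highest of them were 5 of the 75 channel genes, where 10.6% of all genes were. Taken by probe set, 17 of 126 channel probe sets, of 16 genes, were above it, where 12.5% of all probe sets were. Below their median were 14 channel genes, where 23.6% of all genes were. On every array Kcnh6, Kcnip3 and Kcnc4 were above all 27 controls, as 3.19% of all genes were. A signal in the range of these probe sets is not called expressed or absent here.

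**Figure D1:**
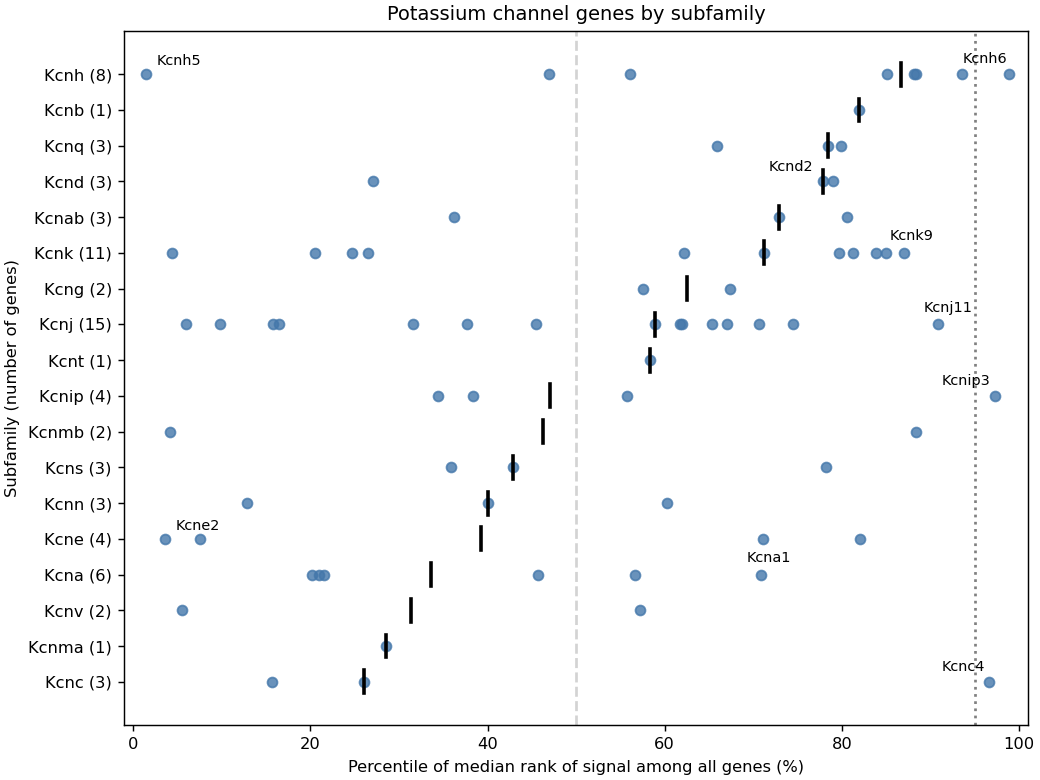
Percentile of signal among 14217 genes (x axis, from median ranks over 9 arrays) of 75 potassium channel genes by subfamily (y axis, number of genes in brackets). Each point is a gene, black bars are subfamily medians, the dashed line is the 50th percentile and the dotted line bounds the top 5%. Only Kcnh6, Kcnip3 and Kcnc4 lie beyond the dotted line, and members of most subfamilies are spread widely.

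Among the voltage-gated pore-forming genes, 15 of 24 lay above the 50th percentile and 2 in the top 5%. The ether-à-go-go family (Kcnh), which includes the EAG, ERG and ELK channels, held 5 of the 10 highest channel genes (Kcnh6, Kcnh3, Kcnh4, Kcnh8 and Kcnh1). Its median percentile was 86.6 over 8 genes, each with 1 probe set, yet its members ran from 98.9 for Kcnh6 to 1.47 for Kcnh5, the highest and the lowest of all 75. Kcnh2, the ERG channel best known from the heart, stood at 56.1 and Kcnh7 at 46.9.

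The 3 Kcnq genes, members of the family that carries the M-current, lay between 65.9 for Kcnq5 and 79.9 for Kcnq3, with a median of 78.4. Of the 3 Kcnd genes, which encode the Kv4 pores of the A-type current, Kcnd1 stood at 79.01 and Kcnd2 (Kv4.2) at 77.9, while Kcnd3 stood at 27.1. With the probe set of highest mean in place of the median, Kcnd3 stood at 76.9, Kcnd2 at 79.7 and Kcnd1 at 69.8. By gene value Kcnb2, a delayed rectifier, stood at 82.0.

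The 6 Kcna genes (Kv1) had a median percentile of 33.6 by gene value, from 70.8 for Kcna1 to 20.2 for Kcna6. By the probe set of highest mean, Kcna6 was instead the highest of them at 86.1, with Kcna2 at 71.5 and Kcna1 at 61.3. The 3 Kcnc genes (Kv3) had a median of 26.01 by gene value, with Kcnc4 at 96.6, Kcnc1 at 26.01 and Kcnc2 at 15.6. The probe set of highest mean put Kcnc2 at 68.5 and Kcnc1 at 21.5. The silent subunits, which do not form channels alone but modify Kv2 pores, had 7 measured genes with a median of 57.2, from Kcns1 (78.2) to Kcnv1 (5.55), with Kcng2 at 67.4 and Kcng3 at 57.6 between them.

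Inward rectifiers were the largest subfamily. The 15 Kcnj genes had a median percentile of 58.9, and 8 lay above the 50th. After Kcnj11 came Kcnj14 at 74.5 and Kcnj13 at 70.7. By gene value the channels opened by G proteins were closely grouped, with Kcnj5 at 67.1, Kcnj3 (GIRK1) at 65.4, Kcnj9 (GIRK3) at 61.7 and Kcnj6 (GIRK2) at 58.9. Their probe sets were not. Those of Kcnj3 lay from the 17.3 to the 80.6 percentile of probe sets, of Kcnj5 at 36.4 and 83.6, and of Kcnj6 from 30.7 to 82.5. Kcnj9, with 1 probe set, ran from the 33.3 to the 90.8 percentile on single arrays. The strong rectifiers Kcnj4, Kcnj2 and Kcnj12 stood at 45.5, 37.7 and 16.4, and the vascular subunit Kcnj8 at 9.77.

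The 11 tandem-pore genes (Kcnk) had a median percentile of 71.2, with 7 above the 50th. Kcnk9 (TASK-3) stood at 87.0, Kcnk6 at 85.0, Kcnk5 at 83.9, Kcnk2 (TREK-1) at 81.2 and Kcnk3 (TASK-1) at 79.6. Kcnk12, Kcnk1, Kcnk10 and Kcnk4 lay at or below 26.5. Kcnk15 and Kcnk13, at 71.2 and 62.2, lay between these groups.

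Of the 5 calcium- or sodium-activated pores, the small-conductance channel Kcnn3 stood highest at 60.3, then the sodium-activated Kcnt1 at 58.3, Kcnn1 at 40.1, the BK pore Kcnma1 at 28.6 and Kcnn4 at 12.9. By gene value none of these 5 was above the 75th percentile, but the probe set of highest mean put Kcnt1 at 92.8. The 13 accessory genes had a median of 55.7. Among the KChIP genes, Kcnip3 stood at 97.3 by gene value, apart from Kcnip1 (55.7), Kcnip4 (38.4) and Kcnip2 (34.4). By the probe set of highest mean the gap was smaller, with Kcnip3 at 99.99, Kcnip1 at 95.6, Kcnip2 at 88.4 and Kcnip4 at 64.5. By gene value the Kv1 beta subunits Kcnab1, Kcnab3 and Kcnab2 stood at 80.6, 72.9 and 36.3. The Kcne subunits stood at 82.1 for Kcne3, 71.1 for Kcne4, 7.56 for Kcne1 and 3.59 for Kcne2. Kcnab2 and Kcne2 stood at 89.1 and 40.8 by the probe set of highest mean.

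The order of the subfamilies depended on how a gene was summarised. With the probe set of highest mean in place of the median, the Kcnip genes had the highest median percentile of the subfamilies with 3 or more genes, at 92.0, followed by Kcnab at 89.1, Kcnq at 85.1, Kcnh at 79.1 and Kcnd at 76.9. Under that rule Kcnc stood at 68.5, Kcnk at 61.0, Kcnj at 60.7, Kcna at 49.8 and Kcnn at 33.1. All Kcnh and Kcnn genes had a single probe set, so their signals were the same under both rules and only the genes around them moved.

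A list of 13 potassium channel mRNAs or subunits known from dendrites had 10 measured genes, with a median percentile of 58.6 beside 58.3 for all channel genes and 49.99 for all genes. It held Kcnip3 (97.3), Kcnd2 (77.9), Kcna1 (70.8), Kcnj3 (65.4), Kcnj6 (58.9), Kcnt1 (58.3), Kcna2 (56.6), Kcnip4 (38.4), Kcnma1 (28.6) and Kcnd3 (27.1). A list of channel genes best known from other organs or from glia had 16 of 21 genes measured, with a median of 26.6 and no member in the top 5%. By gene value its highest members were Kcnk6, Kcnk5 and Kcne3, and its lowest Kcne2 and Kcnmb1. The other 59 channel genes had a median of 58.9. These medians describe signals and were not tested.

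Of 28 measured partners of potassium channels, 2 were in the top 5% and the median was 49.3. Dlg4, which encodes the scaffold PSD-95 that binds Kv1 and Kir2 tails, stood at 11.42 ± 0.14 (percentile 98.2), and Calm2, which encodes the calmodulin that serves as calcium sensor of SK channels, at 11.11 ± 0.69 (97.7). Gnao1, which encodes the G protein subunit Go alpha, stood at 93.1. Lgi1, a secreted protein linked to Kv1 complexes, and Fmr1, whose product binds channel mRNAs and proteins, were lowest at 0.366 and 1.84. Dpp6, the accessory subunit of Kv4 channels, stood at 27.2.

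The channel genes varied between arrays about as much as other genes. The median SD over the 9 arrays was 0.517 for the channel genes and 0.552 for all genes, and 34 of 75 were above the latter. Several probe sets went into the value of 31 of the 75 channel genes and of 4525 of all 14217 genes. These shares were not matched, and the SD of a gene value depends on its number of probe sets, as described below. Over the 36 pairs of arrays, the correlation of signals over the channel genes ran from 0.638 to 0.890 with a median of 0.810, against 0.672 to 0.869 with a median of 0.809 over all genes. Of the 75, 20 lay above the 50th percentile on all arrays and 12 below it on all arrays. The corresponding shares were 22.3% and 21.8% of all genes.

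The least steady member was Kcnv1, a silent subunit, with an SD of 1.33. It gave 8.52, 5.03 and 5.32 in the 100-dendrite pools, 5.55, 6.35 and 8.20 in the 200-dendrite pools and 5.33, 7.49 and 5.78 in the 400-dendrite pools. Each pool size thus held low and high arrays, and its percentile on single arrays ran from 0.77 to 76.0.

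Kcnk9 had an SD of 1.22, with 9.10, 8.51 and 9.08, then 7.69, 8.98 and 9.56, then 5.99, 9.69 and 9.88. The value of 5.99 was that of replicate 1 of the 400-dendrite pools, while the other 2 arrays of that size gave the highest signals of all. The inward rectifier Kcnj2 (SD 1.04), Kcns3 (0.959) and Kcnk5 (0.956) came next.

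Replicate 1 of the 400-dendrite pools lay over 1.5 log2 units below all other arrays in 4 channel probe sets, of Kcna6, Kcnab2, Kcnh1 and Kcnk9, and as far above them in 1, of Kcns3. No other array did so in more than 1 probe set in either direction. Replicate 1 of the 100-dendrite pools stood as far above the rest for Kcnq5, at 10.24 against 7.36 to 8.34 on the other 8 arrays.

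The steadiest members were Kcng2 (SD 0.171), a silent subunit measured by 3 probe sets, Kcnh6 (0.215), Kcnc4 (0.218), Kcnk2 (0.260) and Kcnip3 (0.269). All of these but Kcnh6 were medians of several probe sets, while the 5 least steady members had 1 probe set each. The Kcng2 probe sets taken singly had SDs of 0.34, 0.47 and 0.49, above that of their median. Those of Kcnip3 had SDs of 0.05 and 0.55. The SDs of genes with 1 and with several probe sets are therefore not directly comparable. Kcng2 stayed between 7.80 and 8.35 on all arrays.

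**Figure D2:**
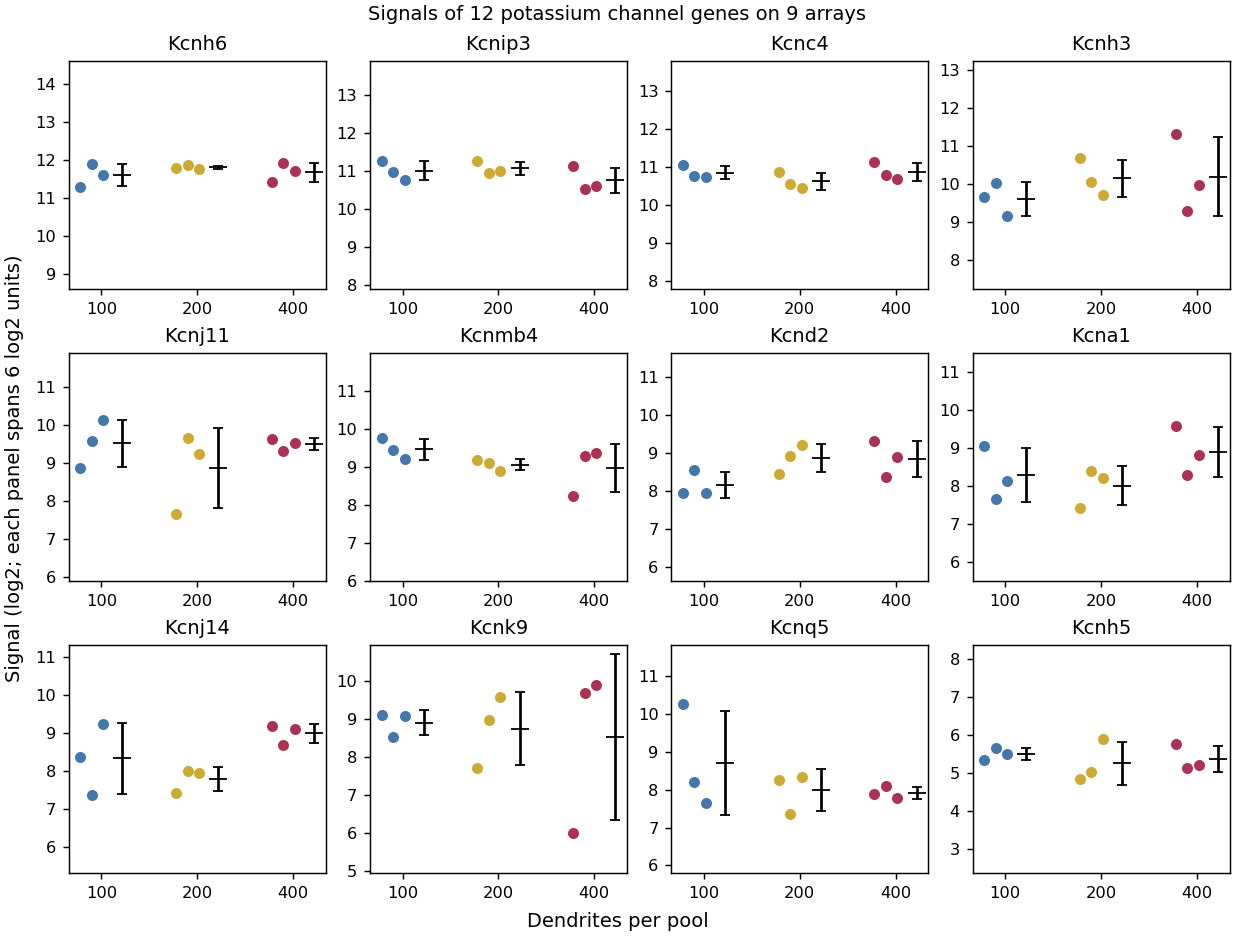
Log2 signal (y axis, each panel 6 log2 units high) of 12 potassium channel genes in pools of 100, 200 and 400 dendrites (x axis). Each array is drawn as a point, with the mean and SD of its pool size at the side. Kcnh6, Kcnip3 and Kcnc4 stay within narrow bands, Kcnk9 has 1 array at 5.99 in the 400-dendrite pools, and Kcnq5 has 1 at 10.24 in the 100-dendrite pools.

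Pool size was compared to ask whether the number of dendrites went with a difference in the signals. No channel gene passed the test. Over all 14217 genes, limma called 0 at an adjusted p under 0.05 in each of the 3 contrasts (0.0% each). At an unadjusted p under 0.05 it found 342 genes for 400 against 100 dendrites (2.41%), 431 for 200 against 100 (3.03%) and 327 for 400 against 200 (2.3%), of which 0, 0 and 1 were channel genes. The methods' t-test also called 0 after adjustment, with 408, 488 and 409 genes at an unadjusted p under 0.05, and limma's F test over the 3 pool sizes called 0, with 307 unadjusted and 0 of them channel genes.

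The member past an unadjusted p of 0.05 was Kcnj14 (Kir2.4), an inward rectifier. It gave 9.16, 8.69 and 9.10 in the 400-dendrite pools, 7.42, 7.98 and 7.94 in the 200-dendrite pools and 8.37, 7.36 and 9.24 in the 100-dendrite pools. The 400- and 200-dendrite pools did not overlap, while the 100-dendrite pools spanned both. The difference of 400 from 200 was 1.21 (SE 0.46, 95% interval 0.19 to 2.22), with an adjusted p of 0.999 from limma.

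Next for 400 against 100 dendrites were Kcna4, an A-type Kv1 channel, at -1.05 (SE 0.54), Kcnk12 at 0.73 (SE 0.40), Kcnd2 at 0.70 (SE 0.39) and Kcns3 at 1.05 (SE 0.61). Kcnd2 gave 7.96, 8.56 and 7.96 in the 100-dendrite pools, 8.47, 8.94 and 9.21 in the 200-dendrite pools and 9.32, 8.37 and 8.89 in the 400-dendrite pools. Every pool size overlapped the next. The Kcns3 difference came with replicate 1 of the 400-dendrite pools, at 9.59 where the other 2 arrays of that size gave 7.35 and 7.52. The remaining members by the size of p were Kcna5 at 0.70 on the higher side and Kcnab1 at -0.61, Kcnk4 at -0.64 and Kcnq5 at -0.78 on the lower side.

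For 200 against 100 dendrites the members of smallest p that were lower were Kcnip2 at -0.89 (SE 0.41), Kcnj6 at -0.76 (SE 0.36), Kcna6 at -0.75 (SE 0.40) and Kcnj8 at -0.71 (SE 0.42). Those that were higher were Kcnd2 at 0.71 (SE 0.39), Kcns2 at 0.995 (SE 0.54), Kcna2 at 0.91 (SE 0.58) and Kcnn3 at 0.65 (SE 0.42). All had an adjusted p of 0.9999 in limma. Kcnip2 gave 7.66, 7.08 and 8.10 against 6.84, 6.57 and 6.76, without overlap, while its 400-dendrite pools, at 7.91, 6.73 and 7.28, covered both. Of its 3 probe sets, the middle one in signal differed by -0.97. The brightest differed by 0.28 and the dimmest by -0.23, and in both the pool sizes overlapped.

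For 400 against 200 dendrites, after Kcnj14, the members of smallest p that were higher were Kcns3 at 1.18 (SE 0.61), Kcna1 at 0.89 (SE 0.48) and Kcnk3 at 0.72 (SE 0.40). Those that were lower were Kcnab1 at -0.61 (SE 0.36), Kcnip4 at -0.66, Kcns2 at -0.70 and Kcnh1 at -0.84. Kcna1 gave 9.57, 8.28 and 8.83 in the 400-dendrite pools against 7.42, 8.38 and 8.21, with overlap. The Kcnh1 value on replicate 1 of the 400-dendrite pools was 6.36, where the other 8 arrays gave 8.10 to 9.67.

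The 3 arrays of 1 size lay apart from those of another in few members. For 400 against 100 dendrites, 3 channel genes were higher without overlap (Kcnj16, Kcnk12 and Kcnk2), where 3.67% of all genes were, and 1 was lower (Kcnab1), where 2.58% were. For 200 against 100, 2 were higher (Kcnk2 and Kcnn3; 4.05% of all genes) and 5 lower (Kcna6, Kcnip2, Kcnj6, Kcnmb4 and Kcnq3; 3.75%). For 400 against 200, 3 were higher (Kcna5, Kcna6 and Kcnj14; 3.59%) and 1 lower (Kcng2; 3.18%). For Kcnj16, Kcnk2, Kcnab1, Kcnq3 and Kcng2 the groups lay apart only in the median of several probe sets. In each of their probe sets taken singly, the pool sizes compared overlapped. For Kcna6 and Kcnj6 the groups lay apart in a single probe set, the middle one in signal and the dimmest. In the others they overlapped. For 400 against 200 dendrites the Kcna6 probe sets differed by 0.66 in the middle one, 0.47 in the dimmest and -0.94 in the brightest. The brightest gave 7.03 on replicate 1 of the 400-dendrite pools. For Kcnab1, replicate 1 of the 400-dendrite pools was the lowest array in the brighter probe set and the highest in the dimmer. The gene value of Kcnab1 on that array was 8.31. The contrasts share their arrays, so a gene named in more than 1 was not measured independently in each.

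The median difference over the channel genes was 0.03 for 400 against 100 dendrites, -0.01 for 200 against 100 and 0.01 for 400 against 200, with 41, 36 and 38 of 75 above 0. The median 95% interval of a channel gene extended 0.93 log2 units to either side before any adjustment for the number of genes, and with that adjustment even the difference of 1.21 for Kcnj14 was not called. On the dendritic list 4, 5 and 3 of 10 differences were above 0, with medians of -0.13, 0.02 and -0.20, and none passed. The mean of the interneuron markers was 6.78 to 7.18 in the 200-dendrite pools, below the 7.35 to 7.71 of the 100-dendrite pools and the 7.39 to 7.55 of the 400-dendrite pools, without overlap. The mean of the oligodendrocyte lineage markers was 7.98 to 8.24 in the 200-dendrite pools, above the 7.60 to 7.87 of the 100-dendrite pools and the 7.55 to 7.92 of the 400-dendrite pools, also without overlap. The means of the other marker lists overlapped between all pool sizes. The part of these cells in the channel differences was not tested.

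**Figure D3:**
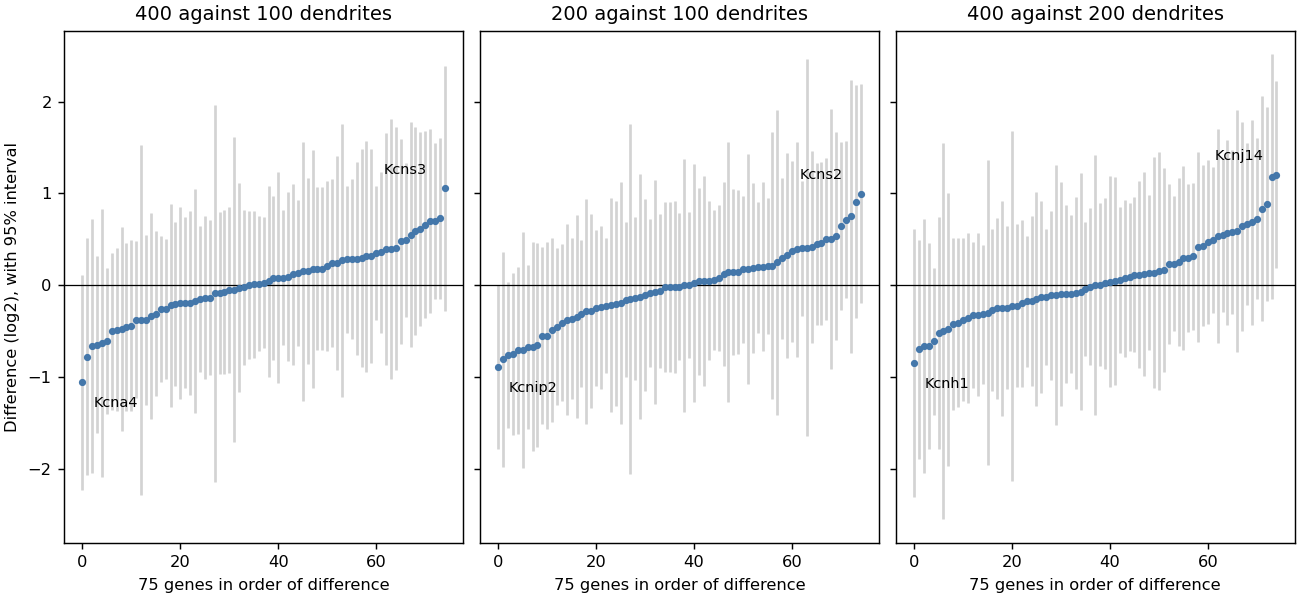
Differences in log2 signal (y axis) between pool sizes for 75 potassium channel genes, in order of size within each contrast (x axis), with 95% intervals from limma. Of all intervals drawn, that of Kcnj14 for 400 against 200 dendrites is the one that leaves out 0, and the smallest and largest differences of each contrast are named.

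Of the 75 genes, 44 had 1 probe set, 16 had 2, 12 had 3, 2 had 4 and Kcnc2 had 6. The 31 genes with several probe sets make it possible to ask whether probes for the same gene reported the same signal. In level they did so poorly, and from array to array their changes were close to uncorrelated. Probe sets of a gene differ in binding strength and in their distance from the 3′ end of the transcript, and linear amplification shortens RNA towards that end. The 3′ probe sets exceeded the 5′ ones by -0.43 to 2.41 log2 units for beta-actin, by 0.84 to 2.99 for GAPDH and by -1.91 to 1.15 for hexokinase. The part of that in the channel genes was not tested, and probe positions were not used here.

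The highest and lowest probe sets of a gene lay a median of 2.55 log2 units apart in mean signal. The gap was over 2 units in 20 of the 31 genes and over 4 in 8. Taken in pairs, 34 of 79 channel pairs were over 2 units apart, where 28.7% of 9597 pairs of all genes were, and the median gap was 1.69 against 1.22.

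Kcnip3 had the widest gap as measured, 8.27 log2 units. Its brighter probe set gave 15.02, 15.09 and 15.02 in the 100-dendrite pools, 15.10, 15.09 and 15.04 in the 200-dendrite pools and 15.14, 15.16 and 15.06 in the 400-dendrite pools, near the top of the scale, where the highest value of any probe set was 15.61, so the gap may be understated. The dimmer one gave 7.51, 6.88 and 6.52, then 7.43, 6.81 and 6.94, then 7.14, 5.89 and 6.13. The first stood at the 99.99 percentile of probe sets and the second at the 31.7, so the gene's place in the top 5% rested on the first.

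For Kcnk2 the probe sets averaged 11.74 ± 0.35 and 5.54 ± 0.33, a gap of 6.20. For Kcnc4 they averaged 13.38 ± 0.24 and 8.20 ± 0.34, a gap of 5.19, and its lower one stood at the 69.0 percentile of probe sets. For Kcnt1 the means were 10.68, 7.66 and 5.50, and for Kcnip1 11.26, 7.54 and 6.13. The brighter probe set was the higher one on all 9 arrays for Kcnip3, Kcnk2 and Kcnc4.

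Kcnab1, Kcnq5 and Kcnj11 were the other 3 genes with a gap over 4. The brightest Kcnj11 probe set, at 11.58 ± 0.14, carries the platform's suffix for probes shared with other transcripts, which leaves its signal uncertain. In 7 of the 31 genes the brightest probe set was in the top 5% of probe sets, and in 6 of these the dimmest was below the 50th percentile. The exception was Kcnc4.

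Other genes had probe sets that stood close in level. The gap was under 1 log2 unit in 7 genes, Kcnj16 (0.14), Kcne3 (0.34), Kcnv2 (0.42), Kcnk10 (0.43), Kcnd2 (0.82), Kcna2 (0.84) and Kcnma1 (0.85). The Kcnj16 probe sets averaged 6.34 ± 0.50 and 6.48 ± 0.28, both low, and the Kcne3 probe sets 8.69 ± 0.97 and 9.03 ± 0.52. Among dendritic mRNAs, the Kcnd2 probe sets averaged 8.22 ± 0.62 and 9.04 ± 0.66, at the 73.9 and 85.0 percentiles of probe sets.

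The choice of probe set therefore set how many channel genes ranked high. With the brightest probe set of each gene, 8 of 75 genes were in the top 5% in place of 3. Among all genes, 6.44% of the 9692 with a single probe set were in the top 5%, and 1.92% of the 4525 with several. Among the channel genes these were 1 of 44 and 2 of 31.

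**Figure D4:**
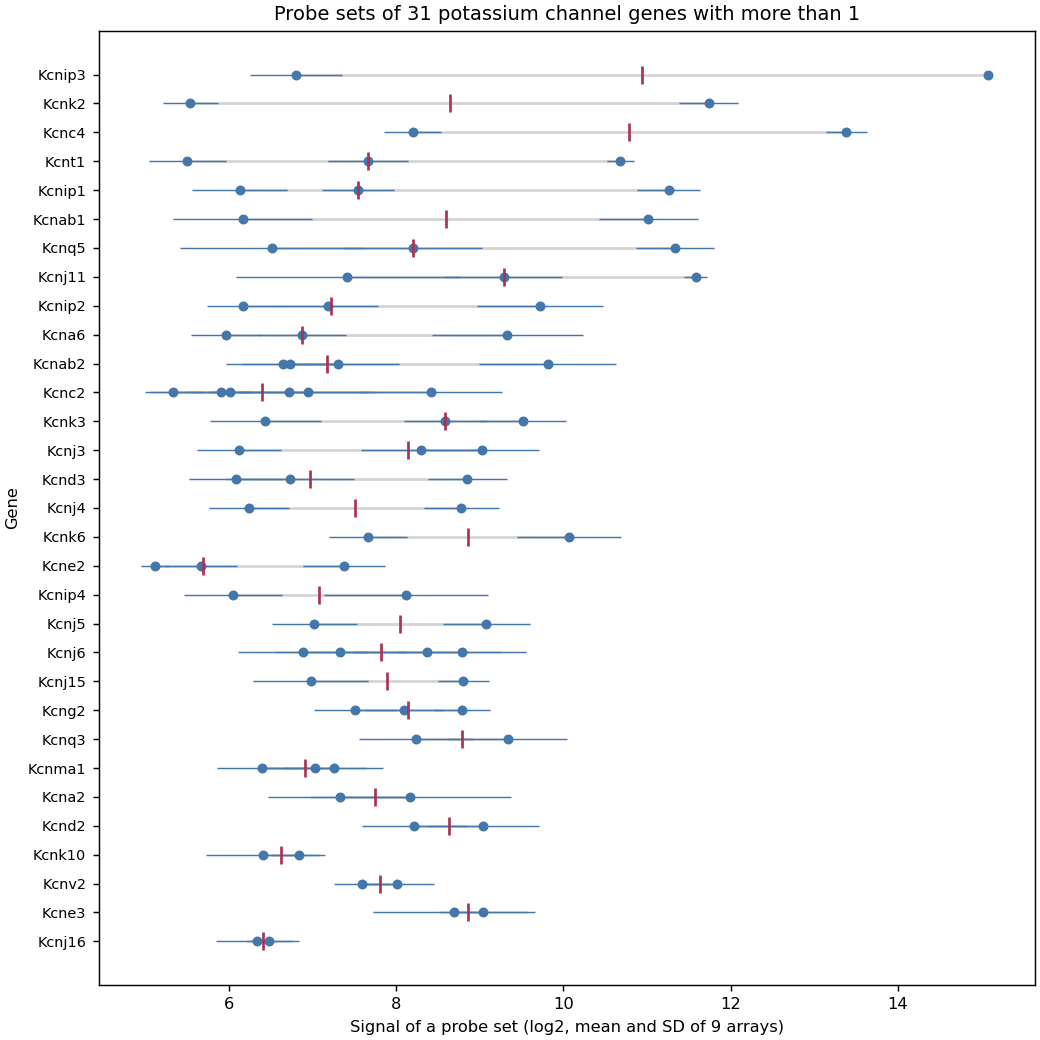
Mean log2 signal (x axis, bars are the SD of 9 arrays) of each probe set of the 31 potassium channel genes that have more than 1 (y axis, in order of the gap). Grey lines join the probe sets of a gene and red marks are the mean gene value. Kcnip3, at the top, spans 8.27 log2 units and Kcnj16, at the bottom, 0.14.

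Probe sets of a gene also did not rise and fall together over the arrays. The median Pearson correlation of the 79 channel pairs was 0.043, against 0.006 over 9597 pairs of all genes, and 45 of the 79 were above 0. In an exact permutation test over the 9 arrays, two-sided, adjusted over all pairs, 0 pairs were called (0.0%), and at an unadjusted p under 0.05 there were 379 pairs with a positive correlation (3.95%), of which 2 were channel pairs. With a negative correlation there were 305, 1 of them a channel pair. By Spearman's rho 0 pairs were called as well, with 1 channel pair positive at an unadjusted p under 0.05. The arrays are replicate pools, and no gene was called between pool sizes. How much real difference between arrays there was for 2 probe sets to share was not tested. A correlation near 0 here thus does not show how well a probe set measures its gene.

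The 2 positive pairs were of Kcnt1 and Kcnj4. The Kcnj4 (Kir2.3) probe sets had r = 0.80 (exact permutation p = 0.0088, adjusted p = 0.592) and rho = 0.73 (exact permutation p = 0.0311, adjusted p = 0.727). Leaving out any 1 array kept r between 0.72 and 0.86, and without the 2 arrays farthest from the median it was 0.56. One probe set gave 5.83, 5.86 and 6.47, then 7.12, 5.94 and 6.26, then 6.11, 5.72 and 6.80. The other gave 8.71, 8.33 and 9.05, then 9.40, 8.07 and 8.60, then 9.10, 8.52 and 9.25. Both were highest on replicate 1 of the 200-dendrite pools and next highest on replicate 3 of the 400-dendrite pools.

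The brightest and dimmest Kcnt1 probe sets had r = 0.81 (exact permutation p = 0.0387, adjusted p = 0.691) and rho = 0.58 (exact permutation p = 0.108, adjusted p = 0.834). This rested on replicate 1 of the 400-dendrite pools, the highest array for both, at 11.03 and 6.71. Among the 9 fits that left out 1 array the lowest r was 0.14, and without the 2 arrays farthest from the median it was 0.36. Next were 3 pairs of Kcnc2, at r = 0.66, 0.60 and 0.56, and the Kcnk6 pair at 0.62, none past an unadjusted 0.05. The Kcnc2 pairs share probe sets, and the last of them rested on replicate 1 of the 400-dendrite pools, the highest array for both probe sets at 8.39 and 8.02, without which r was 0.063.

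The most negative pairs were of Kcnt1 and Kcnj11, both at r = -0.68, then Kcnc2 and Kcnk3, both at -0.57. The Kcnc2 value was -0.25 without replicate 1 of the 400-dendrite pools. For Kcnt1 (exact permutation p = 0.027, adjusted p = 0.653; rho = -0.85, exact permutation p = 0.0061, adjusted p = 0.595) the middle probe set tended to be low where the brightest was high. The 3 probe sets of this gene thus gave the most positive and the most negative correlation among the channel pairs. Without the 2 arrays farthest from the median the negative one was -0.65.

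Among the pairs with the widest gaps, r was 0.16 for Kcnk2 and 0.10 for Kcnc4, with adjusted p values of 0.958 and 0.974 in the exact permutation test. The Kcnip3 pair, at -0.26, says little, since its brighter probe set lay near the top of the scale and varied by an SD of 0.05. The correlation was low among bright pairs as well. The 306 pairs of all genes in which both probe sets averaged above 9 had a median correlation of 0.0676, against 0.0115 for the 5501 pairs with 1 at or below 7.

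**Figure D5:**
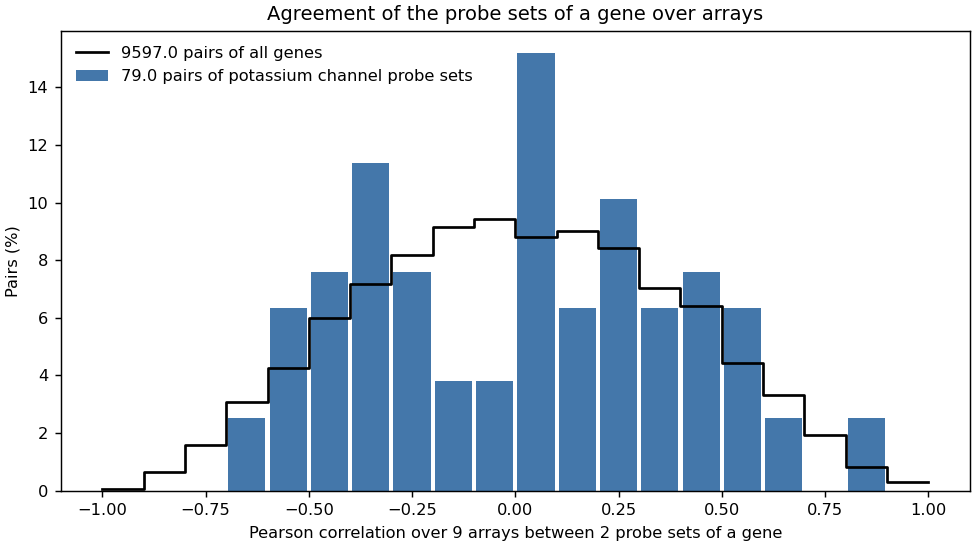
Distribution of the Pearson correlation over 9 arrays between 2 probe sets of a gene (x axis), as a percentage of pairs (y axis). Blue bars are 79 pairs of potassium channel genes and the black line is 9597 pairs of all genes. Both lie around 0, with medians of 0.043 and 0.006.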

How the data were processed

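Dendrite RNA from 9 pools was amplified linearly in several rounds, labelled and hybridised to Affymetrix rat expression arrays. What the authors deposited is a log2 signal per probe set, from RMA 2.0 according to the submitters' processing notes. The study's methods name an upper decile of the probes as the summary of a probe set. Values were much repeated, with 1550 to 4057 distinct values per array and 1 value present 748 times, so ties are common. The methods' median centring and percentile scaling are not in these values. Probe set genes came from the platform's gene table, with 0 channel symbols changed by updating through Entrez IDs. The median of a gene's probe sets was its value, and percentiles are ranks of its median rank over arrays. Genome positions were not used here.

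Groups came from sample titles, which call the arrays biological replicates. Whether these were separate cultures is not given in the sources used here, so p values measure the spread between these arrays. The number of arrays limits the precision. Pool sizes were compared in limma 3.58.1 (R 4.3.3), in 1 model of 9 arrays with empirical Bayes moderation, two-sided, with Benjamini-Hochberg adjustment over 14217 genes and a threshold of 0.05. Correlations between probe sets used an exact permutation test over 362880 orders, adjusted over 9597 pairs, run under Python 3.11.15. The packages were pandas 2.3.3, numpy 2.4.6, scipy 1.17.1 and, for figures, matplotlib 3.10.9. Both tests were checked on simulated data. For the correlations these held fewer pairs, some of them far more strongly correlated than most here. That check does not show that weaker correlations could be called among 9597 pairs. Alternatives were another gene value, probe sets singly, the centring and scaling of the methods, quantile normalization, a filter on dim genes, the methods' t-test, other variance settings, a replicate block and leaving out arrays.

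The channel genes, lists and rules were chosen with earlier results of these data known. Named genes were the 12 highest and 6 lowest members, the ends of each subfamily, the 4 smallest p in each direction per contrast, the 5 greatest and smallest SDs, the 6 highest and 4 lowest pair correlations, the 5 widest gaps, the dendritic list, and the 3 highest and 2 lowest of the lists of other organs and of partners. Others named in the text were chosen after their values were seen.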

Additional observations from a re-analysis of the deposited data

How the results depend on the processing

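The number of channel genes called was 0 in all 3 contrasts and the F test under all 67 alternatives that were run. These included leaving out each array. Pairs called stayed at 0 in 12 of 12. Of these 12, 1 took out the mean of each pool size and permuted arrays within sizes. Its 216 orders gave a smallest possible permutation p of 0.00463. After adjustment over all pairs that run could hardly call any, so its 0 decides little. The runs without 1 array also had fewer orders than the main test, which limits them to a lesser degree. The count in the top 5% moved from 3 to 8 of 75 genes with the probe set of highest mean. Taken singly, 8 of the 126 channel probe sets (6.35%) were in the top 5% of probe sets. The count was 1 of 44 genes when only genes with 1 probe set were ranked, an alternative chosen after seeing the data. The median percentile moved from 58.3 to 65.3 with the probe set of highest mean and to 53.2 with probe sets singly. Leaving out 1 array gave 3 genes in the top 5% each time, a median percentile of 56.9 to 59.8, and a median pair correlation of 0.020 to 0.058. With 1 array left out, the median difference ran from -0.06 to 0.08 for 400 against 100 dendrites, from -0.08 to 0.01 for 200 against 100, and from -0.03 to 0.19 for 400 against 200, and with the other alternatives from 0.02 to 0.08, from -0.02 to 0.02 and from -0.10 to 0.01, and no channel gene was called. Leaving out the 2 arrays of brightest controls, also chosen later, as were the alternatives to the F test, gave a median pair correlation of 0.020. Same-numbered arrays of different pool sizes did not deviate together, with correlations of deviations from -0.19 to 0.09, so the numbers were not taken to pair the arrays. With the replicate number as a block, 0 channel genes were called and the genes at an unadjusted p under 0.05 were 362, 437 and 336.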
